A study of Mus musculus with 12 samples.

Results

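A set of 10 genes of glycolysis and lactate handling was followed across 4 RNA libraries labelled as mouse cardiomyocytes grown in culture. They are Ldha, Ldhb, Pgk1, Pgam1, Slc16a3, Aldoa, Tpi1, Eno1, Hk2 and Pfkl, and each was read from its row in the deposited expression table, 10 of 23427 rows. The set was picked with its response to Hey1 and Hey2 induction already known, so its values in those 2 contrasts are a description and carry no test. All 10 had a value in all 4 libraries and entered the 10991 genes compared, those listed in every library with a mean of at least 1 RPKM (a read count scaled to the length of the gene and the depth of the library). The libraries came from cells labelled as cardiomyocytes, differentiated in vitro out of CM7/1, a murine embryonic stem (ES) cell line. A Hey1 line and a Hey2 line, named for the Notch-regulated transcriptional repressor induced in each, were each sequenced without induction and after 48 h with 1000 ng/ml doxycycline. Every group was 1 library, and no doxycycline-treated library without a Hey gene to induce was analysed here, so an effect of the drug and an effect common to Hey1 and Hey2 cannot be told apart. Whether each line is a single clone, and how the differentiations were spread over days, is not given in the sources used here. The 8 chromatin immunoprecipitation samples of the series were not analysed here.

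Glycolysis breaks glucose down to pyruvate in the cytosol. Lactate dehydrogenase then interconverts pyruvate and lactate, and monocarboxylate carriers move lactate across the cell membrane. Many steps have isoenzymes, of which some are typical of muscle and others of proliferating or stem cells. The adult heart burns mostly fatty acids and is rich in the lactate dehydrogenase B subunit, while pluripotent cells rely strongly on glycolysis. Hypoxia-inducible factor and Myc are well known activators of the pathway.

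The induced gene was higher in the library labelled induced of each line. Hey1 stood at 0.735 RPKM without and 8.59 RPKM with doxycycline in the Hey1 line, and Hey2 was blank without and at 6.59 RPKM (173 reads) with doxycycline in the Hey2 line. A blank cell was taken to mean fewer reads than a floor of 10 in the Hey1-line libraries and 5 in the Hey2-line libraries. That floor was set where the read counts recovered from the RPKM values jumped in frequency. For 634 genes the smallest fitting length gave fewer reads, and their length and reads were raised to reach the floor. The reads in listed genes, recovered from the steps of the RPKM values, numbered 2296145 to 4182146 per library, and each of the 10 genes had 256 to 4527 reads. The Hey2 line stood apart, although both lines are labelled cardiomyocytes. Summed over 15 cardiomyocyte markers, all listed in every library, it had 1255 and 1317 RPKM against 21572 and 22240 RPKM in the Hey1 line. Its 9 listed pluripotency markers summed to 377 and 361 RPKM against 36.1 and 28.6 RPKM. In such bulk RNA, fewer cells of a type and less RNA per cell cannot be told apart. The 10 most abundant genes took 11.5% and 12.9% of the reads of the Hey1 line but 3.34% and 3.20% of those of the Hey2 line.

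With induction, 8 of the 10 genes were lower in both lines: Ldha, Pgk1, Pgam1, Slc16a3, Aldoa, Tpi1, Eno1 and Pfkl. Ldhb was higher in both, and Hk2 was lower with Hey1 and higher with Hey2. The largest declines in both lines were in Ldha, which encodes the lactate-producing A subunit, in the ATP-forming phosphoglycerate kinase Pgk1, and in the lactate exporter Slc16a3. These 3 were at least 20% lower with each induction. Summed over the 10 genes, expression was 1134 RPKM without and 1005 RPKM with Hey1 induction, 11.4% lower, and 1003 without and 840.1 RPKM with Hey2 induction, 16.2% lower. Because the genes were selected on these contrasts, the counts are set beside those of all genes and nothing is read from the comparison. Of all compared genes, 31.8% were lower in both lines and 2.43% were at least 20% lower in both.

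**Figure D1:**
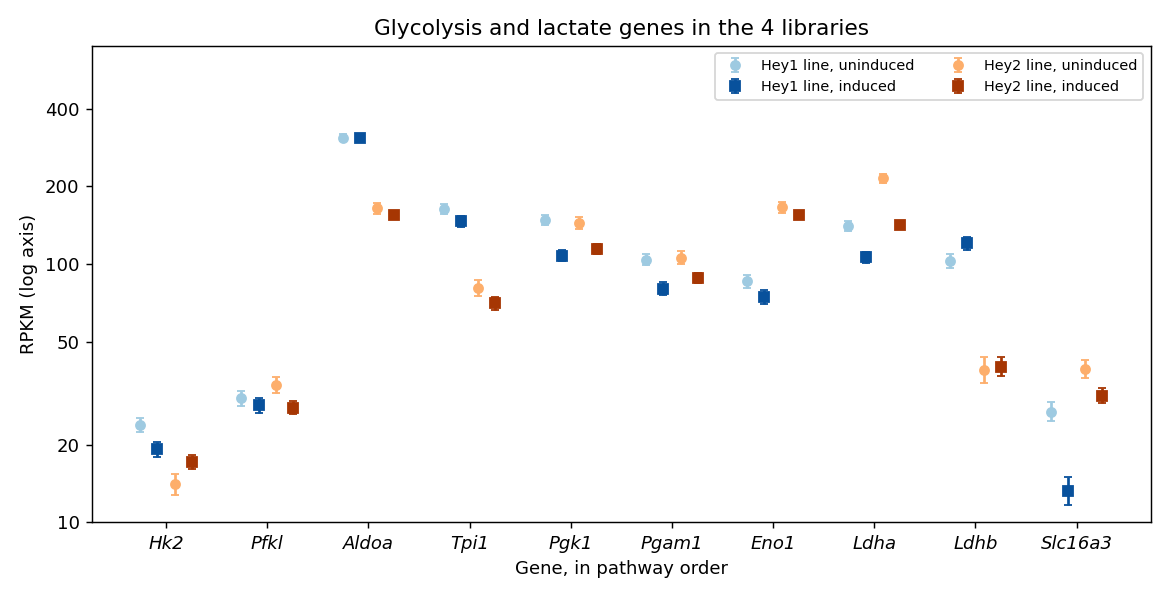
Expression of the 10 genes in the 4 libraries, in pathway order, in RPKM on a log axis. Each point is 1 library and the bars are 95% counting intervals. Ldha, Pgk1, Pgam1 and Slc16a3 sit lower in the induced library of both lines, while Aldoa, Tpi1, Eno1 and Ldhb differ more between lines than with induction.

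The sequences just upstream of Ldha, Pgk1 and Slc16a3 are shown because these 3 genes had the largest differences, and that of Ldhb because it is the lactate dehydrogenase gene that was not lower. Each stretch is the 250 bases before an annotated start, read 5′ to 3′ on the gene's strand, from RefSeq on build GRCm38.p6. Capitals mark matches on either strand to ACGTG or GCGTG, the core letters of the hypoxia response element, or to CACGTG or CACGCG, E-box letters known to be bound by Hey proteins. The start of Ldha used here follows chr7:46845554-46845803 on the plus strand, that of Pgk1 follows chrX:106186850-106187099 on the plus strand, and that of Slc16a3 follows chr11:120948817-120949066 on the plus strand. The stretch of Ldhb is chr6:142507958-142508207 on the minus strand.
Ldha: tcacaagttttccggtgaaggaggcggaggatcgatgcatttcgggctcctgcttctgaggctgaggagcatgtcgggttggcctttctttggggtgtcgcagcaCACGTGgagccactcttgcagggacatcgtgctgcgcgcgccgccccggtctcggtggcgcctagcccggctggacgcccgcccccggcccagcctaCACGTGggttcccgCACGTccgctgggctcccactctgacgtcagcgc
Pgk1: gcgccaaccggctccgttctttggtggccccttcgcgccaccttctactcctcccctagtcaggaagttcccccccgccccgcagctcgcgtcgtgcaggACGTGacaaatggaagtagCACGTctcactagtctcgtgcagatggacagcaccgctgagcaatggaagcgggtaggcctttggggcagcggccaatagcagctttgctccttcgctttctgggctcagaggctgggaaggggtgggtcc
Slc16a3: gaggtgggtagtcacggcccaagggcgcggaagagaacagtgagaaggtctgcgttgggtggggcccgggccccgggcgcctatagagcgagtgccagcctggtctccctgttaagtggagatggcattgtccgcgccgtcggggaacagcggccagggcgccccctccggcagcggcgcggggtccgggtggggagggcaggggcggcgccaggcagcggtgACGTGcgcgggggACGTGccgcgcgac
Ldhb: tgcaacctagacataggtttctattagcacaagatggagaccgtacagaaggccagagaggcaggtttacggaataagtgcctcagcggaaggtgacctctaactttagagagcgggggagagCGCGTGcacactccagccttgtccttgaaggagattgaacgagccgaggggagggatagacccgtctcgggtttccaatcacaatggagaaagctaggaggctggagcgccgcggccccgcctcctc

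The Ldha stretch held 2 copies of CACGTG and 5 matches to ACGTG at 3 separate places, since each CACGTG counts as ACGTG on both strands. Pgk1 and Slc16a3 each held 2 copies of ACGTG and no E-box letters. Ldhb held 1 CACGCG, read as CGCGTG on the printed strand, which also contains GCGTG. RefSeq gave 15 such windows for the 10 genes, some of them overlapping alternative starts. ACGTG or GCGTG was found in 13 of these windows and in 9 of the 10 genes, all but Tpi1, and in 38.6% of the 32851 windows of all genes. CACGTG or CACGCG was found in 4 windows of 3 genes, Ldha, Ldhb and Pgam1, and in 12.9% of all windows. The base content of the windows was not matched, so these shares are a description. Genes with and without E-box letters were found both among those lower in both lines and among the other two.

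Hexokinase traps glucose in the cell as its phosphate, and phosphofructokinase is the main point of control downstream. Hk2 (Entrez 15277), the insulin-responsive hexokinase of muscle, went opposite ways. It stood at 23.8 RPKM without and 19.2 RPKM with doxycycline in the Hey1 line, and at 14.0 and 17.1 RPKM in the Hey2 line; in each such pair below the uninduced library comes first. Hk2 was thus 1.24-fold lower with Hey1 (95% counting interval 1.13 to 1.37) and 1.22-fold higher with Hey2 (1.09 to 1.37). These intervals, here and below, come from the recovered reads and cover counting error only, not the spread between cultures. Pfkl (Entrez 18641), the liver-type phosphofructokinase subunit, stood at 30.2 and 28.3 RPKM in the Hey1 line and at 34.1 and 27.8 RPKM in the Hey2 line. With Hey1 it was 1.07-fold lower, with an interval that includes 1 (0.966 to 1.18), and with Hey2 1.22-fold lower (1.11 to 1.35). Its libraries of the Hey1 line could not be told apart at this depth, nor could the induced libraries of the 2 lines (1.02-fold, 0.928 to 1.12).

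The middle of the pathway splits the sugar into trioses. Aldoa (Entrez 11674), the main muscle aldolase, was the most abundant of the 10 genes by length-scaled level in the Hey1 line, at 309 and 308 RPKM, and stood at 164 and 155 RPKM in the Hey2 line. It lay just inside the set counted as lower in both, at 1.003-fold lower with Hey1 (0.962 to 1.05) and 1.06-fold lower with Hey2 (1.002 to 1.12). Just outside that set was Ldhb in the Hey2 line, at 1.03-fold higher. Tpi1 (Entrez 21991), the triose phosphate isomerase, stood at 163 and 147 RPKM in the Hey1 line and at 80.7 and 70.5 RPKM in the Hey2 line. That is 1.11-fold lower with Hey1 (1.04 to 1.19) and 1.14-fold lower with Hey2 (1.04 to 1.26), a small and similar difference as deposited.

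Members of the set cover each of the steps from bisphosphoglycerate to phosphoenolpyruvate. Pgk1 (Entrez 18655) stood at 148 and 108 RPKM in the Hey1 line and at 144 and 114 RPKM in the Hey2 line. Its uninduced libraries were level as deposited and both induced libraries lay below them, at 1.37-fold (1.28 to 1.46) and 1.26-fold lower (1.18 to 1.35). Pgam1 (Entrez 18648), the non-muscle phosphoglycerate mutase, followed the same order. It stood at 104 and 80.3 RPKM in the Hey1 line and at 106 and 88.4 RPKM in the Hey2 line, 1.30-fold (1.198 to 1.41) and 1.199-fold lower (1.11 to 1.29). Pgk1 and Pgam1 were the members whose uninduced levels were closest between the lines as deposited, while Pfkl was closest under each of the 3 rescalings. Eno1 (Entrez 13806), the enolase of most non-muscle cells, stood at 85.8 and 74.5 RPKM in the Hey1 line and at 166 and 155 RPKM in the Hey2 line. The difference with induction was 1.15-fold lower with Hey1 (1.06 to 1.26) and 1.07-fold lower with Hey2 (1.01 to 1.14).

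Lactate genes gave the widest spread. Ldha (Entrez 16828) stood at 140.0 and 106 RPKM in the Hey1 line and at 215 and 141 RPKM in the Hey2 line. It was 1.32-fold lower with Hey1 (1.23 to 1.41) and 1.52-fold lower with Hey2 (1.44 to 1.61), the largest Hey2 difference of the 10. As deposited, the uninduced Hey2-line library was the highest of the 4, and its induced counterpart lay at the level of the uninduced Hey1 line. Ldhb (Entrez 16832), whose subunit favours turning lactate back to pyruvate, stood at 103 and 121 RPKM in the Hey1 line and at 39.0 and 40.05 RPKM in the Hey2 line. It was 1.17-fold higher with Hey1 (1.08 to 1.28) and 1.03-fold higher with Hey2, within counting error (0.889 to 1.19). Slc16a3 (Entrez 80879), the carrier MCT4 that exports lactate from glycolytic cells, stood at 26.8 and 13.2 RPKM in the Hey1 line and at 39.2 and 30.9 RPKM in the Hey2 line. It was 2.03-fold lower with Hey1 (1.74 to 2.36), the largest Hey1 difference of the set, and 1.27-fold lower with Hey2 (1.14 to 1.41). Its 13.2 RPKM in the induced Hey1 line was the lowest level of any of the 10 genes.

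**Figure D2:**
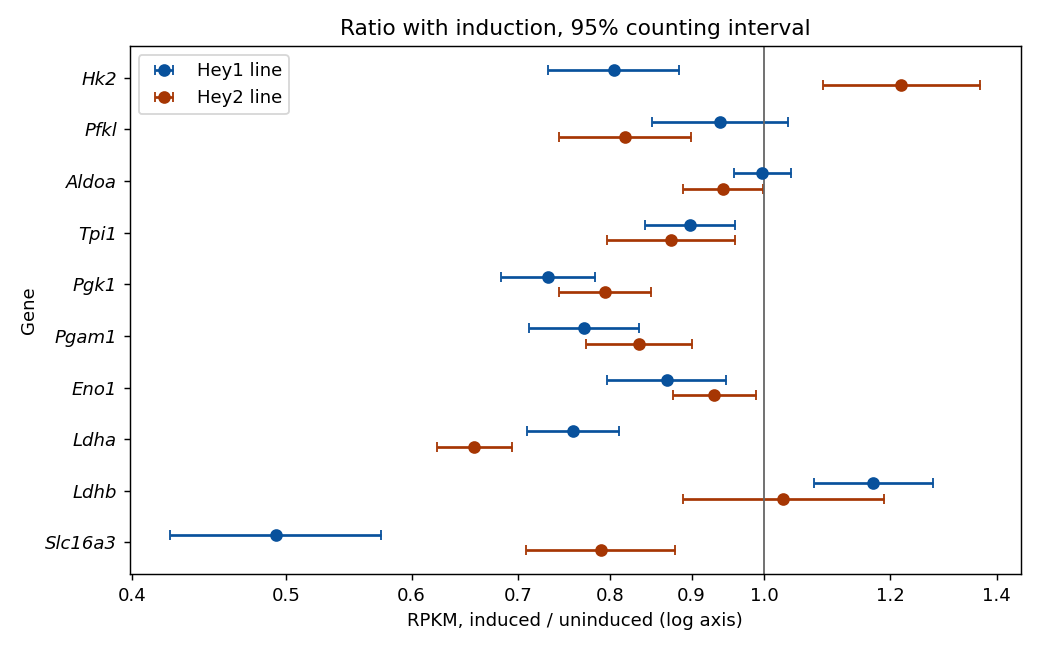
Ratio of induced to uninduced RPKM for each of the 10 genes on a log axis, with 95% counting intervals from recovered reads. Values left of 1 are lower with induction. Slc16a3 in the Hey1 line (2.03-fold lower) and Ldha in the Hey2 line (1.52-fold lower) lie farthest left, and Ldhb and Hk2 with Hey2 lie right of 1.

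Counted by interval, 7 of the 10 genes lay below 1 with Hey1 and 8 with Hey2, and 6 lay below 1 with both (Ldha, Pgk1, Pgam1, Slc16a3, Tpi1 and Eno1). The same count over all genes with recovered reads was 13.5% with Hey1, 6.63% with Hey2 and 1.43% with both. Highly expressed genes have narrower intervals, and among genes at least as high in every library as the lowest value of the set, 4.55% were below 1 with both. The median difference of the set on the log2(RPKM + 1) scale was −0.25 with Hey1 and −0.23 with Hey2, against −0.06 and −0.002 over all compared genes. With median ratio scaling, in which the typical gene is held level, the interval counts were 5 with Hey1, 7 with Hey2 and 4 with both (Ldha, Pgk1, Pgam1 and Slc16a3). Aldoa was then no longer lower with Hey1, and Tpi1 differed by −0.06 with Hey1 and by −0.19 with Hey2. Some members have near-identical copies. Eno1b, a copy of Eno1 with its own row, stood at 92.2 and 81.8 RPKM in the Hey1 line and at 193 and 174 RPKM in the Hey2 line. How reads matching both were assigned is not given in the sources used here, so the level of Eno1 is uncertain, and so are those of Aldoa, which has the copies Aldoart1 and Aldoart2, and of other members with processed pseudogenes. Eno1 summed with its copy differed by −0.18 and −0.14 on the log2(RPKM + 1) scale, and Aldoa summed with its copies by 0.003 and −0.09.

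Ratios between isoenzymes of 1 library do not depend on how libraries are scaled. The ratio of Ldha to Ldhb was 1.36 without and 0.880 with Hey1 induction, and 5.53 without and 3.53 with Hey2 induction. The ratio was thus lower with each induction, 1.55-fold with Hey1 (1.39 to 1.72) and 1.56-fold with Hey2 (1.34 to 1.82), from different starting levels. In shares, Ldha made up 57.6% and 46.8% of the summed RPKM of both genes in the Hey1 line, against 84.7% and 77.9% for the Hey2 line. Their sum stood at 243 and 227 RPKM in the Hey1 line and at 254 and 182 RPKM in the Hey2 line. The testis subunit gene Ldhc was listed in the induced Hey2 line alone, at 0.736 RPKM.

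The carriers Slc16a3 and Slc16a1, which encodes MCT1, were near parity. Their ratio was 1.11 without and 0.755 with Hey1 induction, and 1.17 without and 0.989 with Hey2 induction, which is 1.46-fold (1.22 to 1.76) and 1.18-fold lower (1.03 to 1.35). Slc16a1 itself stood at 24.3 and 17.5 RPKM in the Hey1 line and at 33.5 and 31.3 RPKM in the Hey2 line. It was 1.38-fold lower with Hey1 (1.24 to 1.54) and 1.07-fold lower with Hey2, an interval that includes 1 (0.984 to 1.17). Bsg, the chaperone that carries both to the membrane, stood at 166 and 158 RPKM and at 76.7 and 75.6 RPKM, and neither ratio left counting error. A further carrier, Slc16a7, was listed in 3 libraries at 0.438 to 1.23 RPKM.

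Other isoenzymes share a step with members of the set, several of them typical of muscle. Pgam2, the muscle phosphoglycerate mutase, stood at 512 and 642 RPKM in the Hey1 line and at 20.5 and 17.7 RPKM in the Hey2 line. With Hey1 it was 1.253-fold higher (1.198 to 1.31), and with Hey2 1.16-fold lower within counting error (0.903 to 1.49). The ratio of Pgam1 to Pgam2 was therefore 1.63-fold lower with Hey1 (1.49 to 1.78) and 1.03-fold lower with Hey2 (0.799 to 1.33). Eno3, the muscle enolase, stood at 239.7 and 234 RPKM and at 13.9 and 14.6 RPKM, with both intervals including 1. The ratio of Eno1 to Eno3 was 1.13-fold lower in each line, with an interval off 1 in the Hey1 line (1.02 to 1.24) and not in the Hey2 line (0.914 to 1.39). Hk1, the hexokinase of most tissues, stood at 38.8 and 41.9 RPKM and at 8.64 and 9.92 RPKM. The ratio of Hk2 to Hk1 was 1.34-fold lower with Hey1 (1.19 to 1.52) and 1.06-fold higher with Hey2 (0.874 to 1.29). Pfkm, the muscle phosphofructokinase subunit, stood at 40.7 and 41.9 RPKM and at 15.2 and 14.3 RPKM, and the platelet-type Pfkp at 27.7 and 24.8 RPKM and at 20.6 and 18.8 RPKM. The ratio of Pfkl to Pfkm differed with neither induction beyond counting error.

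**Figure D3:**
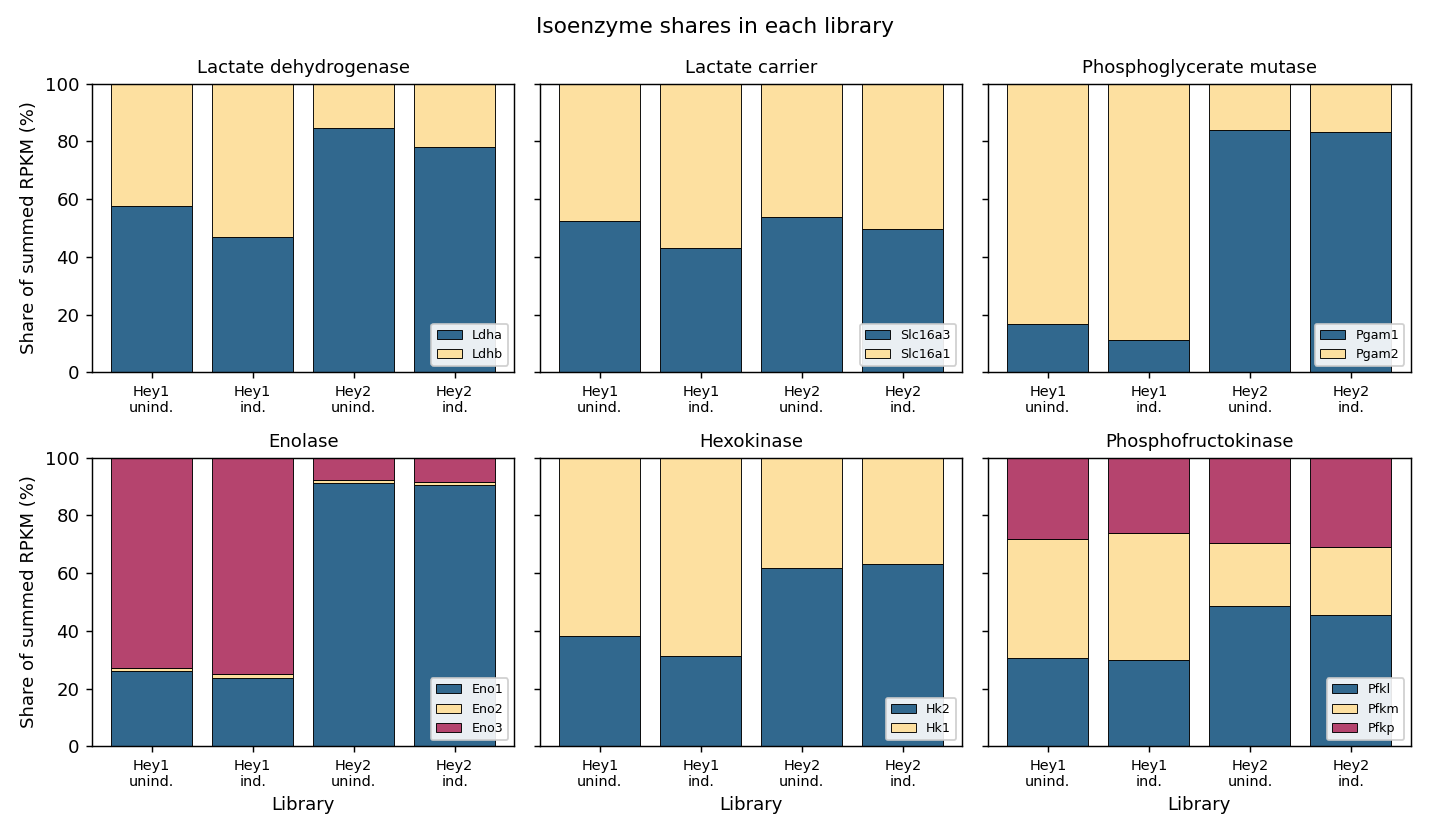
Share of each isoenzyme gene in the summed RPKM of its step (percent) in the 4 libraries. The non-muscle genes Pgam1 and Eno1 hold 83.8% and 91.2% of their steps in the uninduced Hey2 line against 16.9% and 26.0% in the uninduced Hey1 line, and the Ldha share is lower in the induced library of both lines.

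Between the lines, the 10 genes divided into those with more and those with less RNA in the Hey2 line, a contrast their choice did not rest on but for which there is again 1 library on each side. Without induction, Ldhb was 2.64-fold (2.32 to 3.02), Tpi1 2.02-fold (1.86 to 2.20), Aldoa 1.88-fold (1.78 to 1.99) and Hk2 1.70-fold lower (1.52 to 1.90) in the Hey2 line. Eno1 was 1.94-fold (1.80 to 2.09), Ldha 1.54-fold (1.45 to 1.63) and Slc16a3 1.46-fold higher (1.29 to 1.65). Pfkl was 1.13-fold higher (1.02 to 1.247), a direction that reversed under median ratio scaling. Pgk1 and Pgam1 differed by 1.02-fold as deposited, with intervals that include 1. On the log2(RPKM + 1) scale, Ldha differed by 0.62 as deposited and by 0.38 under median ratio scaling. Pgk1 differed by −0.03 as deposited and by −0.27 under that scaling. Of the 10, Ldhb and Tpi1 were at least 2-fold lower as deposited, a count of 2, against 16.7% of all compared genes. None, a count of 0, were at least 2-fold higher, against 26.1%. Aldoa differed by −1.15, −1.07 and −1.01 on the log2(RPKM + 1) scale under the 3 rescalings, beyond 2-fold lower in each. The shares of all genes were not recomputed under them. The set's median difference was −0.004 on the log2(RPKM + 1) scale, against 0.20 over all genes. That all-gene median moved to 0.008 under median ratio scaling, and the set's own median to −0.24, so Pgam1, higher as deposited, was lower under that scaling.

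The induced libraries repeated the order for most of the set. Direction was the same in both pairs of libraries for 8 of the 10, all but Pgk1 and Pfkl. Over all 10991 compared genes, 4619 were lower in the Hey2 line without induction and 4387 with it. The share of all genes with the same direction in both pairs was not computed, so nothing particular to the set is read from its count. Slc16a3 was 2.34-fold higher (2.03 to 2.70) in the induced Hey2 line than in the induced Hey1 line, more than the uninduced 1.46-fold, and Hk2 was 1.12-fold lower (1.02 to 1.23), less than the uninduced 1.70-fold. Whether these gaps differ between the pairs was not tested. Pgam2, Eno3 and Hk1 differed between lines by more than any member of the set. Pgam2 was 25.0-fold (20.6 to 30.5), Eno3 17.2-fold (14.5 to 20.5), Hk1 4.49-fold (3.89 to 5.19) and Pfkm 2.68-fold lower (2.34 to 3.07) in the uninduced Hey2 line. The cardiomyocyte markers, of which 15 of 15 were lower, were 17.2-fold lower in sum. Of the skeletal muscle markers, 2 of 6 were listed, at a sum of 34.8 and 34.0 RPKM in the Hey1 line and 3.03 and 2.56 RPKM in the Hey2 line, while the defining regulators Myod1, Myog, Myf5 and Myf6 were blank in all 4 libraries. What part the differing mix of cells had in the isoenzyme pattern was not tested.

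**Figure D4:**
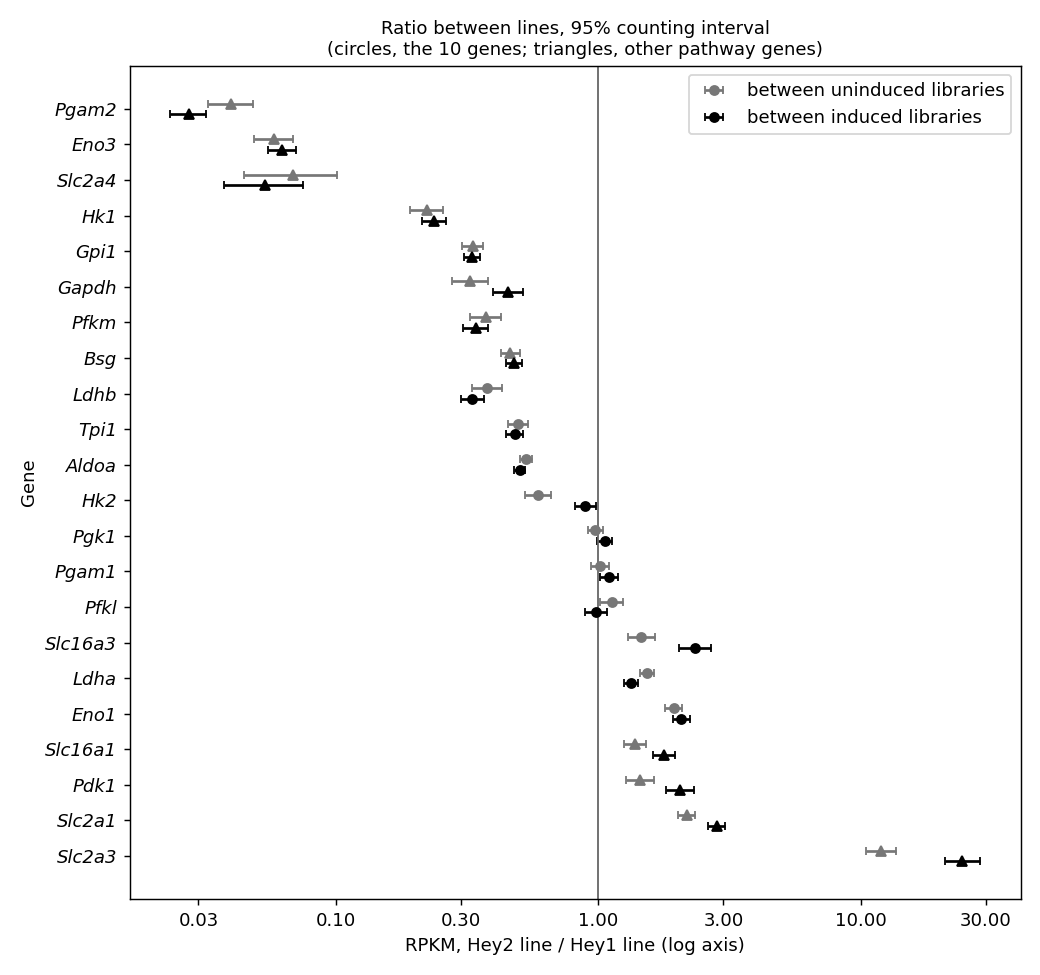
Ratio of Hey2-line to Hey1-line RPKM on a log axis with 95% counting intervals, between the uninduced and between the induced libraries. Circles are the 10 genes and triangles other genes of the pathway. The muscle genes Pgam2, Eno3 and Slc2a4 lie farthest left, the stem-cell glucose carrier gene Slc2a3 farthest right, and Pgk1, Pgam1 and Pfkl near 1.

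Around the 10, a list of 59 other genes of glycolysis, pyruvate entry, the pentose phosphate branch, gluconeogenesis and glycerol phosphate was read, of which 41 were compared. With Hey1, 30 were lower and 11 higher, with 12 intervals below 1 and 4 above. With Hey2, 22 were lower and 19 higher, with 1 interval below 1 (Pkm) and 3 above (Slc2a3, Pfkfb3 and Pdha1). In both lines 16 were lower and 5 higher, and 14 were lower with Hey1 but higher with Hey2. Over all 10991 compared genes, 6767 were lower with Hey1, 5560 with Hey2 and 31.8% with both, and 13.5% and 6.63% of intervals lay below 1, so the list's share lower in both was near that of all genes. The list's median was −0.07 with Hey1 and −0.04 with Hey2, against −0.06 and −0.002 over all compared genes. Under median ratio scaling 8 of the 41 were lower in both, against 24.2% of all genes. Of the 18 compared genes of glycolysis and sugar or lactate transport, 14 were lower with Hey1, 10 with Hey2 and 8 with both, and of 11 genes of pyruvate entry into mitochondria these numbers were 9, 6 and 4. Of 7 pentose phosphate genes, 5 were lower with Hey1, 3 with Hey2 and 2 with both.

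The steps of glycolysis with no gene in the set varied. Pkm, the pyruvate kinase gene that muscle and embryonic cells share, stood at 279 and 267 RPKM in the Hey1 line and at 307 and 266 RPKM in the Hey2 line. It was 1.05-fold (1.01 to 1.09) and 1.15-fold lower (1.11 to 1.197). As deposited, Pkm was the only compared gene outside the set with both intervals below 1, in this list of 41. Such intervals were not tallied for the list under the rescalings. Gapdh, which oxidises glyceraldehyde phosphate, stood at 84.9 and 65.0 RPKM and at 27.7 and 29.5 RPKM. With Hey1 it was 1.31-fold lower (1.17 to 1.45) and with Hey2 1.07-fold higher (0.895 to 1.27), values made uncertain by its many pseudogenes. Gpi1, the glucose phosphate isomerase, stood at 110.2 and 117 RPKM and at 36.7 and 38.5 RPKM, with no interval off 1. The minor aldolase and enolase genes were low: Aldoc stood at 2.74 to 9.09 RPKM and Eno2 at 1.36 to 4.21 RPKM. Pgk2 and Hk3 were blank in all 4 libraries.

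Glucose carriers bring the sugar into the cell, and bifunctional enzymes of the Pfkfb family set the level of the activator of phosphofructokinase. Slc2a1, the ubiquitous carrier GLUT1, stood at 56.8 and 45.3 RPKM in the Hey1 line and at 124 and 128 RPKM in the Hey2 line. It was 1.254-fold lower with Hey1 (1.15 to 1.37) and 1.04-fold higher with Hey2 (0.981 to 1.10). Slc2a3, the high-affinity carrier GLUT3 abundant in pluripotent cells, stood at 8.67 and 5.73 RPKM and at 103 and 139 RPKM, 1.51-fold lower (1.24 to 1.85) and 1.35-fold higher (1.28 to 1.41). The muscle carrier gene Slc2a4 stood at 24.3 and 23.5 RPKM and at 1.66 and 1.26 RPKM. Pfkfb3, the strongly activating member of that family, went the same ways as Hk2 and Slc2a3, at 3.22 and 1.97 RPKM and at 5.36 and 7.33 RPKM, 1.64-fold lower (1.22 to 2.20) and 1.37-fold higher (1.14 to 1.65). Pfkfb2 stood at 1.38 to 2.37 RPKM and Pfkfb4 at 0.414 to 0.595 RPKM, with no interval off 1, and Pfkfb1 was listed in the Hey2 line alone at 3.84 and 3.47 RPKM.

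Pyruvate dehydrogenase kinases restrain the entry of pyruvate into mitochondria. Pdk1, a known target of hypoxia-inducible factor, stood at 13.3 and 9.60 RPKM and at 19.1 and 19.7 RPKM, 1.38-fold lower with Hey1 (1.205 to 1.58) and 1.03-fold higher with Hey2 (0.929 to 1.14). Pdk2, the widely expressed kinase, stood at 33.9 and 44.2 RPKM and at 6.69 and 5.96 RPKM, 1.30-fold higher (1.17 to 1.46) and 1.12-fold lower within counting error (0.848 to 1.48). Pdk3 stood at 8.43 to 13.9 RPKM and Pdk4 at 1.12 to 2.24 RPKM, with no interval off 1 in either induction.

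**Figure D5:**
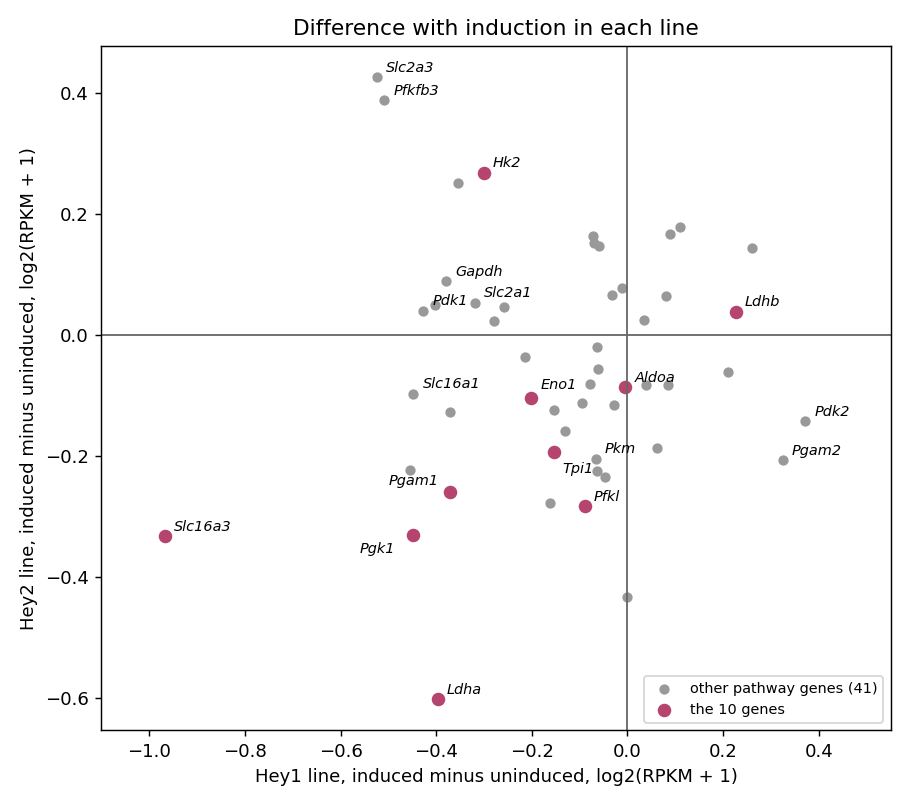
Difference with induction on the log2(RPKM + 1) scale, Hey1 line on the horizontal and Hey2 line on the vertical axis, for the 10 genes and 41 other pathway genes. Each point is 1 gene and each axis rests on 1 pair of libraries. Of the 10, 8 lie in the lower left, with Aldoa at its edge, while Hk2, Slc2a3 and Pfkfb3 lie in the upper left.

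Among activators of the pathway, Hif1a, which encodes the oxygen-regulated subunit, stood at 30.2 and 27.8 RPKM in the Hey1 line and at 25.5 and 29.9 RPKM in the Hey2 line. It was 1.09-fold lower with Hey1, an interval that includes 1 (0.995 to 1.19), and 1.18-fold higher with Hey2 (1.07 to 1.29). Its activity is set mainly at the protein level, which was not measured. Its partner Arnt stood at 6.74 to 10.2 RPKM and its relative Epas1 at 1.10 to 3.58 RPKM. Myc stood at 3.84 and 3.70 RPKM and at 4.78 and 3.99 RPKM, and Mycn at 3.12 and 3.39 RPKM and at 19.96 and 17.5 RPKM, and for none of these 4 did an induction interval leave 1. Other genes known to respond to hypoxia, Bnip3 (1.95-fold), Adm (1.56-fold), Egln3 (3.48-fold) and Vegfa (1.247-fold), were lower with Hey1 beyond counting error. With Hey2 they were 1.03-fold, 1.22-fold, 1.13-fold and 1.10-fold lower, within counting error. Ndrg1 was 1.76-fold lower with Hey1, on 26 and 15 reads (0.896 to 3.57), and 1.47-fold lower with Hey2 (1.03 to 2.09). Ankrd37 was not listed in every library. Over all genes with recovered reads, 13.5% of intervals lay below 1 with Hey1 and 6.63% with Hey2.

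Markers of other cell types differed between the libraries as well. With Hey1, 8 of 9 compared pluripotency markers and 6 of 6 fibroblast markers were lower, with medians of −0.17 and −0.21 on the log2(RPKM + 1) scale, and 6 of 15 cardiomyocyte markers were lower. With Hey2, 3 of 9 pluripotency, 0 of 6 fibroblast and 2 of 15 cardiomyocyte markers were lower. Over all 10991 compared genes, 6767 were lower with Hey1 and 5560 with Hey2, with medians of −0.06 and −0.002. The marker counts were not repeated under the rescalings. Fibroblast markers summed to 43.3 and 37.4 RPKM in the Hey1 line, with 6 of 8 listed, and to 67.0 and 84.4 RPKM in the Hey2 line, with 8 listed. Yolk sac endoderm markers, with Apoa1 blank in all 4 libraries, summed to 69.3 and 49.9 RPKM and to 3.07 and 2.84 RPKM. Smooth muscle markers summed to 311 and 336 RPKM and to 138 and 171 RPKM, neuronal markers to 18.0 and 19.8 RPKM and to 37.1 and 38.2 RPKM, and endothelial markers to 2.67 to 7.66 RPKM. Their part in the differences of the 10 genes was not tested.

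The members differed widely in profile over the 4 libraries. Each profile was taken as log2 RPKM centred on the gene's own mean, and the distance of a member to the set's mean profile ran from 0.226 log2 units (Pgk1) to 1.42 (Ldhb), with Pgam1 at 0.235, Pfkl at 0.258 and Slc16a3 at 1.15. Among 4338 genes outside the set that had 100 or more reads in every library, those nearest the mean profile were Ubac1 at a distance of 0.0545, Ptdss2 at 0.0622, AW146242 at 0.0665, Atp6v1d at 0.0667 and Jmjd6 at 0.0689. Nearest to Ldha alone were 2310005N03Rik at 0.0888, Coq2 at 0.129, Pmm1 at 0.139, Ppil4 at 0.159 and Gphn at 0.181. Each distance rests on 4 libraries and describes these libraries alone.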

How the data were processed

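Total RNA was prepared with a Qiagen RNeasy kit and NEBNext reagents per the labels' protocols. The authors deposited RPKM per gene for 4 libraries, with blanks for low genes. Bowtie 1.0, DESeq, MACS 1.4.1 and mm9 stand in the submitters' processing notes, without roles. Not given in the sources used here are the annotation, the counter, strand and what was done with multiply matching reads. RPKM values fell on whole multiples of what 1 read is worth, which gave divisors of 7400000, 7500000, 5750000 and 10375000 reads. Of 15371 genes, 99.9% gave whole reads (tolerance 3e-06 reads, wider for large values). In data simulated from the real levels, 96.6% of 2000 genes came back exactly. Ratios of RPKM carry exact conditional binomial 95% intervals, and ratios between isoenzymes log-normal ones, both for counting error only. Differences use log2(RPKM + 1). No p-value was computed, since each group is 1 library and the genes were selected on these contrasts. The members, lists, motifs and named genes were chosen with earlier results of these data known. The genes named were the members, their isoenzymes, the steps without a member, carriers, regulators and, by smallest distance, 5 like genes each for the set and for Ldha. Tables were read and analysed with Python 3.11.15, pandas 2.3.3, SciPy 1.17.1 and statsmodels 0.14.6. Alternatives were 3 scalings, 2 pseudocounts, 2 trend removals, no filter on the mean and, chosen after seeing the data, sums with near-identical copies and rescaled intervals. Promoter windows came from RefSeq on GRCm38.p6. No protein sequence was used here.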

Additional observations from a re-analysis of the deposited data

Results flagged for a closer look

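With both counting intervals off 1, 3 genes went opposite ways in the 2 inductions, of 16 with opposite directions among 36 compared genes: the 10, their isoenzymes, the other steps, carriers, kinases and regulators. The induced genes and the hypoxia genes were not in that count; Hey1 itself was 11.7-fold higher with Hey1 (6.48 to 23.1) and 2.46-fold lower with Hey2 (1.06 to 5.92). Over all 10991 compared genes, 3276 were lower with Hey1 and higher with Hey2, and 2068 the reverse. Opposite directions were thus no more frequent among the 36 than among all genes. The share of all genes with opposite directions and both intervals off 1 was not computed, so nothing is read from the count of 3. The difference between the inductions was not tested, since each rests on 1 pair of libraries. Hk2 differed by −0.30 with Hey1 and 0.27 with Hey2 on the log2(RPKM + 1) scale, 0.57 apart. Slc2a3 differed by −0.52 and 0.43, 0.95 apart, and stood 11.9-fold higher in the uninduced Hey2 line. Pfkfb3 differed by −0.51 and 0.39, 0.90 apart, at no more than 7.33 RPKM in any library.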

How the results depend on the processing

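The count of 8 genes lower in both inductions was 8 with either other pseudocount and 7, without Aldoa, under each of the 3 rescalings and both trend removals. Aldoa moved with Hey1 to 0.09 under median ratio and 0.06 under upper quartile scaling. Pfkl, still counted among the 7, was at −0.001 with Hey1 under median ratio scaling. It was at −0.019 with the length trend removed and at −0.015 with the mean expression trend removed. The set's median stayed below 0 under all 7 alternatives, from −0.26 to −0.16 with Hey1 and from −0.23 to −0.18 with Hey2. Its median between uninduced lines, −0.004 as deposited, was −0.24 under median ratio scaling, −0.17 under upper quartile scaling, −0.16 with the length trend removed and 0.13 with the mean expression trend removed. Of the other 41 pathway genes, 16 were lower in both as deposited, 8 under median ratio scaling, 9 with the length trend removed and 10 with the mean expression trend removed, while the share of all genes went from 31.8% to 24.2%, 25.5% and 25.6%. The difference of Pfkl between uninduced lines turned from 0.17 to −0.067 under median ratio scaling and to −0.12 with the length trend removed. The causes were not tested. Both intervals were below 1 for 6 genes as deposited and without the most abundant genes, 5 under upper quartile and 4 under median ratio scaling, beside 1.43%, 1.34%, 1.01% and 0.792% of all genes. Each induced library was compared with the uninduced library of its own line, without a test. A fit over both lines with line as a block was not run. With 1 library per group, none was left out. The fewest reads lay behind Slc16a3 in the induced Hey1 line (256) and Ldhb in the uninduced Hey2 line (289).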
